A study of Mus musculus with 6 samples.

Results

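The genes described here are 10 genes of the NRF2 antioxidant and glutathione system, taken by gene symbol from a table of 16880 genes: Nfe2l2, Keap1, Hmox1, Nqo1, Osgin1, Gclc, Gclm, Txnrd1, Srxn1 and Me1. All 10 were listed and all 10 had enough reads to be tested. RNA was sequenced from ATDC5 cells, a mouse chondrogenic line grown with serum, in 6 libraries. In the IL-1β group, 3 libraries came from cells given 10 ng/mL IL-1β, an inflammatory cytokine. In the IL-1β plus NP-G2-044 group, 3 libraries came from cells given 10 ng/mL IL-1β together with 10 μM NP-G2-044, a small molecule inhibitor of the actin-bundling protein FSCN1. The methods give 24 h of treatment, call the replicates biological and speak of chondrocytes, whereas the sample labels name ATDC5. One label field of the inhibitor samples gives the compound as NP-G2-047. Cells without IL-1β were not analysed here, so every value compares cells that all received IL-1β, and neither an effect of IL-1β itself nor one of NP-G2-044 without IL-1β could be read.

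NRF2, the product of Nfe2l2, is a transcription factor that pairs with small MAF proteins on a DNA sequence called the antioxidant response element (ARE). In unstressed cells KEAP1 hands NRF2 to a CUL3 ubiquitin ligase for degradation. Electrophiles and oxidants block this step, so that NRF2 is known to be controlled mainly through its protein, which these data did not measure. Its known target genes make and recycle glutathione, reduce thioredoxin and peroxiredoxin, detoxify quinones, break down haem and supply NADPH. Several of these genes also answer to other factors: BACH1 represses Hmox1, the aryl hydrocarbon receptor induces Nqo1, and ATF4, the factor of the amino acid and unfolded protein stress response, induces genes of cystine import and glutathione turnover. In cartilage, NRF2 is known as a defence against oxidative damage in osteoarthritis.

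The promoter sequences of RefSeq on GRCm38.p6, each with 250 bases before and 50 bases after a gene start, held 11 starts of 8 of the 10 genes. Hmox1 and Gclc had no entry. The ARE core TGACNNNGC was searched on both strands, and it was found in 5 of the 11 sequences, each from a different gene, and in 12.4% of all 32851 promoters. It can overlap TGANTCA, the site of AP-1, which was found in 7.81% of all promoters. The matches are shown because this sequence is what the targets of NRF2 are known for, each with 10 bases on either side on the strand of the gene and with the match in capitals (on the other strand the core reads GCNNNGTCA).
Nfe2l2, chr2:75704885-75704913, minus strand: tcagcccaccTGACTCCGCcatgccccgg
Me1, chr9:86695902-86695930, minus strand: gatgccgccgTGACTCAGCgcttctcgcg
Gclm, chr3:122245413-122245441, plus strand: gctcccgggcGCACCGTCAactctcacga
Txnrd1, chr10:82859104-82859132, plus strand: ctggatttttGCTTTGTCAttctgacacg
Srxn1, chr2:152105542-152105570, plus strand: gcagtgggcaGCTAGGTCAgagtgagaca
The match began 240 bases before the start in Nfe2l2, 134 in Gclm, 92 before an internal start in Txnrd1 and 6 in Me1, and in Srxn1 it began 28 bases after the start. Only the Me1 match also held the AP-1 site. The windows of Nqo1, Osgin1 and Keap1 held no match to these letters. A match is a description of the sequence, and the 5 genes that held one included genes that rose, that fell and that did not pass the test.

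Read totals lay between 16615831 and 16878162 in the IL-1β group and between 17529836 and 17735850 in the inhibitor group. Libraries of one group differed from each other by 1.54 to 2.39 times the variance of random sampling of reads, and libraries of different groups by 133 to 136 times. The spread within a group was thus small beside the differences between the groups. With edgeR (quasi-likelihood test), 80% of the 11983 tested genes passed an adjusted p of 0.05, 40.2% higher and 39.8% lower with the inhibitor. A call at that threshold alone therefore says little. The standard errors, intervals and p-values below reflect only this small spread between the libraries of a group. With the study's second cutoff, a log2 fold change above 1 in size, 16.6% of the genes were called, 6.48% higher and 10.1% lower. Levels are given in TPM, a unit that accounts for gene length and library size, and a fold change above 0 on the log2 scale, given with its standard error (SE), is a higher level in the inhibitor group. Fscn1, which encodes the target of the compound, went from 616.2 ± 9.46 to 252.4 ± 2.47 TPM (SD, n = 3 each).

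The markers of cell types were read in the same libraries. Of 12 chondrocyte markers 8 were listed, and 5 of these stayed below 1 TPM in every library. The 8 summed to 11.9 to 12.9 TPM with IL-1β and to 22.3 to 24.3 TPM with the inhibitor, and Matn1 was at 0 throughout. Mean levels of Col2a1, the main cartilage collagen, were 0.217 and 0.04 TPM, those of Sox9, the chondrocyte master regulator, 6.44 and 11.4 TPM, and those of Prg4, lubricin, 0.563 and 8.23 TPM. Col11a2, another cartilage collagen, went the other way from Sox9 and Prg4, from a range of 4.75 to 5.18 TPM to one of 3.23 to 3.59 TPM. The 7 fibroblast markers summed to 7539 to 7762 TPM with IL-1β and 2346 to 2452 TPM with the inhibitor, with Thy1 at 0 throughout. S100a4, Vim and Col1a2 made up most of this sum, while Pdgfra went the other way, with mean levels of 2.36 and 8.69 TPM. The 5 listed macrophage markers summed to 11.3 to 14.4 and 124.1 to 134.9 TPM. Nearly all of this was Cd68, a lysosomal protein, with Ptprc, the common leukocyte antigen, at 0 throughout. Adipocyte markers summed to 4.87 to 7.53 and 0.48 to 0.91 TPM. The 4 endothelial markers summed to at most 0.55 TPM in any library, the 2 listed muscle markers to at most 0.15 TPM and the 4 epithelial markers, with Epcam at 0, to at most 1.25 TPM. All these summed levels come from 3 libraries per group. The part of these differences in the results below was not tested. In bulk RNA, a change in the number of cells of a type and a change of RNA per cell cannot be told apart.

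The 10 genes did not move together. With NP-G2-044, Hmox1 rose about 9-fold, Nqo1 fell to 37.2% and Osgin1 to 56.2% of the IL-1β level, the glutamate-cysteine ligase genes Gclc and Gclm rose 1.43-fold and 1.31-fold, and Srxn1 did not pass the test. At an adjusted p below 0.05, 4 of the 10 were higher and 5 were lower, that is 9 of 10 where 80% of all tested genes passed. Past both cutoffs there were 2 of 10, Hmox1 higher and Nqo1 lower, where 16.6% of all tested genes passed. The groups did not overlap in TPM for 9 of the 10, against 79.4% of all tested genes. Both shares are near those of all genes. The median log2 fold change was −0.05 over the 10 genes and 0.00 over all tested genes, and the median of its size was 0.47 against 0.39.

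**Figure D1:**
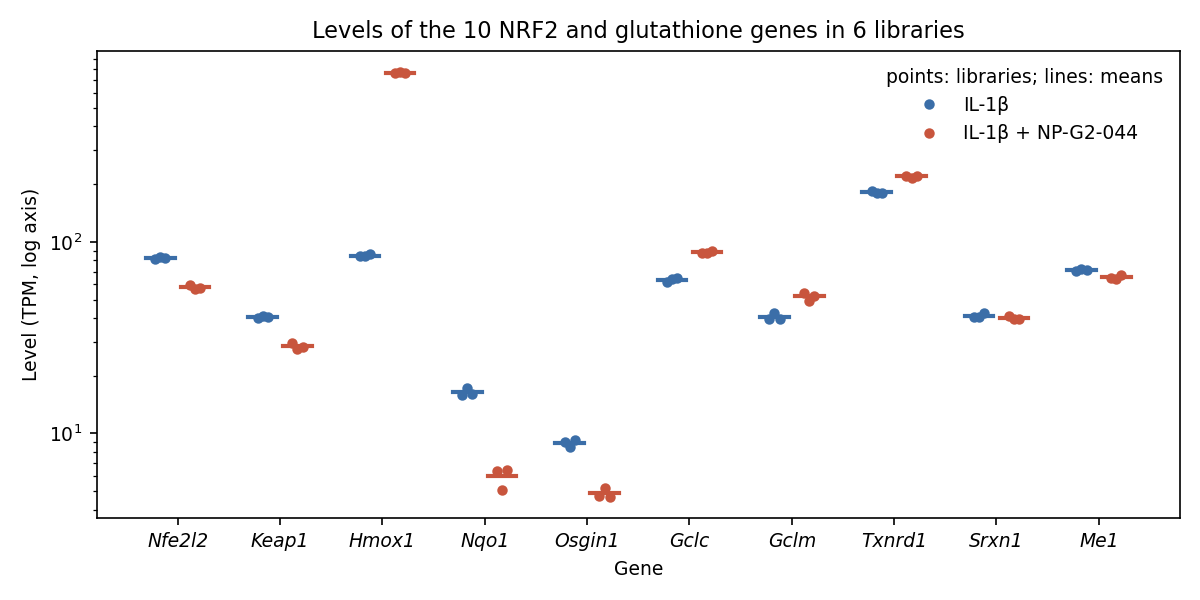
Level of each of the 10 genes in TPM on a log axis, with 1 point for each of 3 libraries per group (blue for IL-1β, red for IL-1β plus NP-G2-044) and a line at the group mean. Hmox1 stands at 764 TPM against 84.7 TPM, Nqo1 and Osgin1 are lower with the inhibitor, and the points overlap between groups only for Srxn1.

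The factor and its repressor were described first. Nfe2l2 (Entrez gene 18024, chr2:75675513-75704641 on GRCm38, minus strand) was at 81.3, 83.2 and 81.9 TPM in the IL-1β libraries and at 59.2, 57.1 and 57.3 TPM in the inhibitor libraries. All 3 inhibitor libraries lay below all 3 others. The log2 fold change was −0.47 (SE 0.0353 and adjusted p = 1.31e-17 in edgeR's quasi-likelihood test), a 1.39-fold lower level (95% interval 1.32 to 1.46). Keap1 (Entrez gene 50868, chr9:21229730-21239361, minus strand) was at 39.8, 40.9 and 40.7 TPM and at 29.6, 27.7 and 28.3 TPM. It too was lower in every inhibitor library. Its log2 fold change was −0.46 (SE 0.0406 and adjusted p = 5.22e-15 in the same edgeR test).

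The ratio of Nfe2l2 to Keap1 in TPM was therefore almost the same in both groups. It was 2.04, 2.03 and 2.01 with IL-1β and 2.001, 2.06 and 2.03 in the inhibitor libraries, and the groups overlapped. On the log2 scale the ratio was 1.02 ± 0.0119 and 1.02 ± 0.0223 (SD, n = 3 each), with a difference of 0.0012 (exact permutation test, two-sided, p = 1.0, where 3 against 3 libraries cannot go below 0.1). The 3 tested genes outside the NRF2 and glutathione lists whose levels followed Nfe2l2 most closely over the 6 libraries were Paics, Slc25a4 and Mpdz. Their log2 CPM, centred per gene, differed from that of Nfe2l2 by a root mean square of 0.014, 0.0148 and 0.0177. This measure includes the difference between the groups. The log2 fold changes of these genes were −0.49, −0.46 and −0.44, near the −0.47 of Nfe2l2. Whether they varied with Nfe2l2 within a group was not tested.

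Hmox1, which encodes the inducible haem oxygenase that splits haem into biliverdin, iron and carbon monoxide, had the largest change of the 10. Hmox1 (Entrez gene 15368, chr8:75093621-75100589, plus strand) was at 84.0, 83.9 and 86.2 TPM with IL-1β and at 759, 770.0 and 764 TPM in the inhibitor group. The 3 libraries of a group lay close together and the groups were far apart. The log2 fold change was 3.20 (SE 0.0323 and adjusted p = 2.06e-56 in edgeR's quasi-likelihood test), a 9.20-fold rise (95% interval 8.80 to 9.63). Only 77 of the 11983 tested genes rose more, and Hmox1 went from place 1829 to place 155 in the order of TPM over all genes.

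The constitutive haem oxygenase gene Hmox2 fell, from 78.0 ± 4.07 to 51.9 ± 3.07 TPM (SD, n = 3 each), or −0.57 on the log2 scale (adjusted p = 2.21e-14 in edgeR's test). The TPM of Hmox1 was 1.12, 1.01 and 1.13 times that of Hmox2 in the IL-1β libraries and 14.3, 14.2 and 15.8 times in the others. This ratio was chosen after the values were seen. By these values both haem oxygenase transcripts were at like levels with IL-1β alone, and Hmox1 made up most of their sum with the inhibitor. Exons of Hmox2 overlap those of Cdip1 on the opposite strand over 892 bases, or 40.2% of the exonic bases of Hmox2. The sources used here do not give whether reads were counted by strand, so the level of Hmox2 and this ratio are uncertain to that extent.

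Because of Hmox1, the summed level of the 10 genes was 625.6, 633.5 and 632 TPM with IL-1β and 1328, 1322 and 1330 TPM in the inhibitor group. Hmox1 was 13.4% ± 0.202 of this sum with IL-1β and 57.6% ± 0.584 with the inhibitor (SD, n = 3 each). The other 9 genes summed to 541.6, 549.6 and 545.8 TPM and to 569.2, 551.6 and 566.1 TPM. Their sum was higher in every inhibitor library, by means of 545.7 ± 4 and 562.3 ± 9.35 TPM (SD, n = 3 each), so that falls and rises among them nearly balanced.

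**Figure D2:**
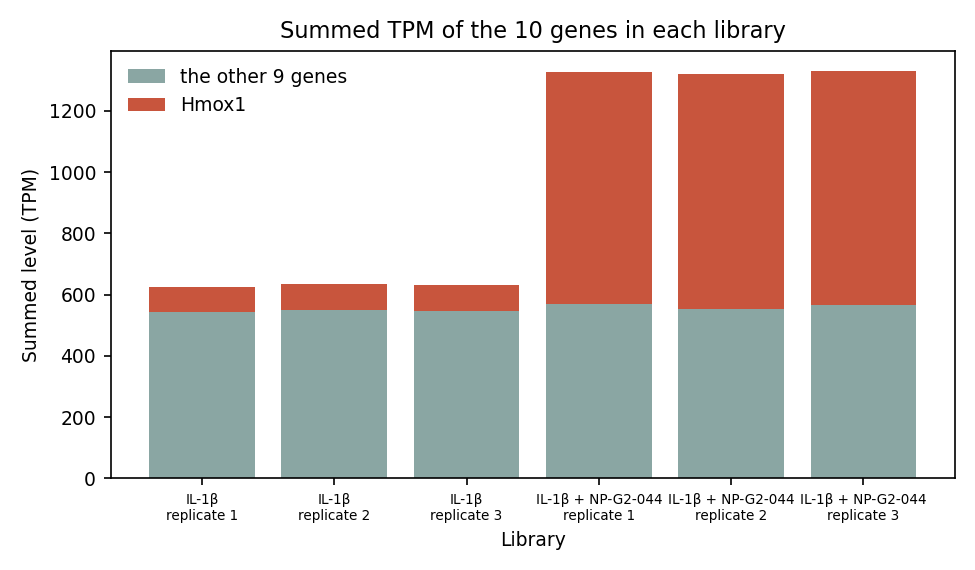
Summed TPM of the 10 genes in each of the 6 libraries as bars from 0, with Hmox1 in red on top of the other 9 genes in grey-green. The grey-green parts run from 541.6 to 569.2 TPM over all libraries, and the red part makes up 57.6% of the bar on average with NP-G2-044.

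The quinone-reducing and growth-inhibiting genes went the other way. Nqo1 (Entrez gene 18104, chr8:107388225-107403206, minus strand), which encodes a reductase that detoxifies quinones and is the textbook readout of NRF2, was at 15.8, 17.2 and 16.1 TPM with IL-1β and at 6.35, 5.05 and 6.48 TPM in the inhibitor group. Every inhibitor library lay below every IL-1β library. The log2 fold change was −1.43 (SE 0.105 and adjusted p = 8.74e-18 in edgeR's quasi-likelihood test). The libraries held 217, 230 and 219 reads of Nqo1 with IL-1β and 91, 74 and 95 reads with the inhibitor.

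Osgin1 (Entrez gene 71839, chr8:119434124-119446256, plus strand), the oxidative stress induced growth inhibitor 1, was the lowest of the 10 genes. It was at 8.99, 8.53 and 9.19 TPM with IL-1β and at 4.71, 5.19 and 4.68 TPM with the inhibitor. The groups did not overlap, and the log2 fold change was −0.83 (SE 0.108 and adjusted p = 1.10e-09 in edgeR's test). Its 95% interval from −1.05 to −0.61 spans the fold cutoff, which Osgin1 did not pass.

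The genes of glutathione synthesis rose moderately. Glutamate-cysteine ligase makes the dipeptide that limits the rate of glutathione synthesis, Gclc encoding its catalytic subunit and Gclm its modifier subunit. Gclc (Entrez gene 14629, chr9:77754535-77794485, plus strand) was at 61.6, 64.2 and 64.7 TPM with IL-1β and at 87.6, 87.3 and 89.3 TPM in the inhibitor group, with no overlap. Its log2 fold change was 0.51 (SE 0.0318 and adjusted p = 7.30e-21 in edgeR's quasi-likelihood test), a 1.43-fold rise (95% interval 1.37 to 1.49). Gclm (Entrez gene 14630, chr3:122245557-122270732, plus strand) was at 39.6, 42.7 and 39.7 TPM and at 54.4, 49.2 and 52.0 TPM. It was also higher in every inhibitor library, with a log2 fold change of 0.39 (SE 0.0458 and adjusted p = 6.29e-11 in the same test), a 1.31-fold rise (95% interval 1.23 to 1.40).

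The ratio of Gclm to Gclc in TPM was 0.643, 0.665 and 0.614 with IL-1β and 0.621, 0.564 and 0.582 with the inhibitor, so the ranges overlapped. On the log2 scale it was −0.64 ± 0.0577 and −0.76 ± 0.0709 (SD, n = 3 each), a difference of −0.12 (exact permutation test, two-sided, p = 0.2, where the smallest possible value is 0.1). A difference in the balance of the subunits was not shown. Exons of Gclm share 296 bases with an antisense non-coding RNA and 244 bases with a pseudogene, and exons of Keap1 overlap an antisense RNA over 510 bases, so some of their reads could belong to these neighbours.

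The thioredoxin, sulfiredoxin and malic enzyme genes changed little. Txnrd1 (Entrez gene 50493, chr10:82833951-82897712, plus strand), the cytosolic thioredoxin reductase, was at 183.8, 180.3 and 179.9 TPM with IL-1β and at 221.3, 216.6 and 221.4 TPM in the inhibitor group. The groups did not overlap, and the log2 fold change was 0.31 (SE 0.0278 and adjusted p = 1.78e-14 in edgeR's quasi-likelihood test). Srxn1 (Entrez gene 76650, chr2:152105516-152111376, plus strand), which repairs over-oxidized peroxiredoxins, was at 40.4, 40.6 and 42.6 TPM and at 41.1, 39.4 and 39.6 TPM. These ranges overlapped. The log2 fold change was −0.01 (SE 0.0409 and adjusted p = 0.834 in edgeR's test), and its 95% interval ran from −0.09 to 0.07, or from 0.938-fold to 1.05-fold.

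Me1 (Entrez gene 17436, chr9:86581371-86695953, minus strand), the cytosolic malic enzyme that makes NADPH, was at 70.3, 71.9 and 71.1 TPM with IL-1β and at 64.9, 64.2 and 67.2 TPM with the inhibitor. Its level in TPM was lower in all 3 inhibitor libraries, and the log2 fold change was −0.09 (SE 0.033 and adjusted p = 0.0145 in edgeR's quasi-likelihood test). The call was lost without replicate 1 of the inhibitor group (adjusted p = 0.0642 in edgeR's test) and without replicate 2 (adjusted p = 0.0731).

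**Figure D3:**
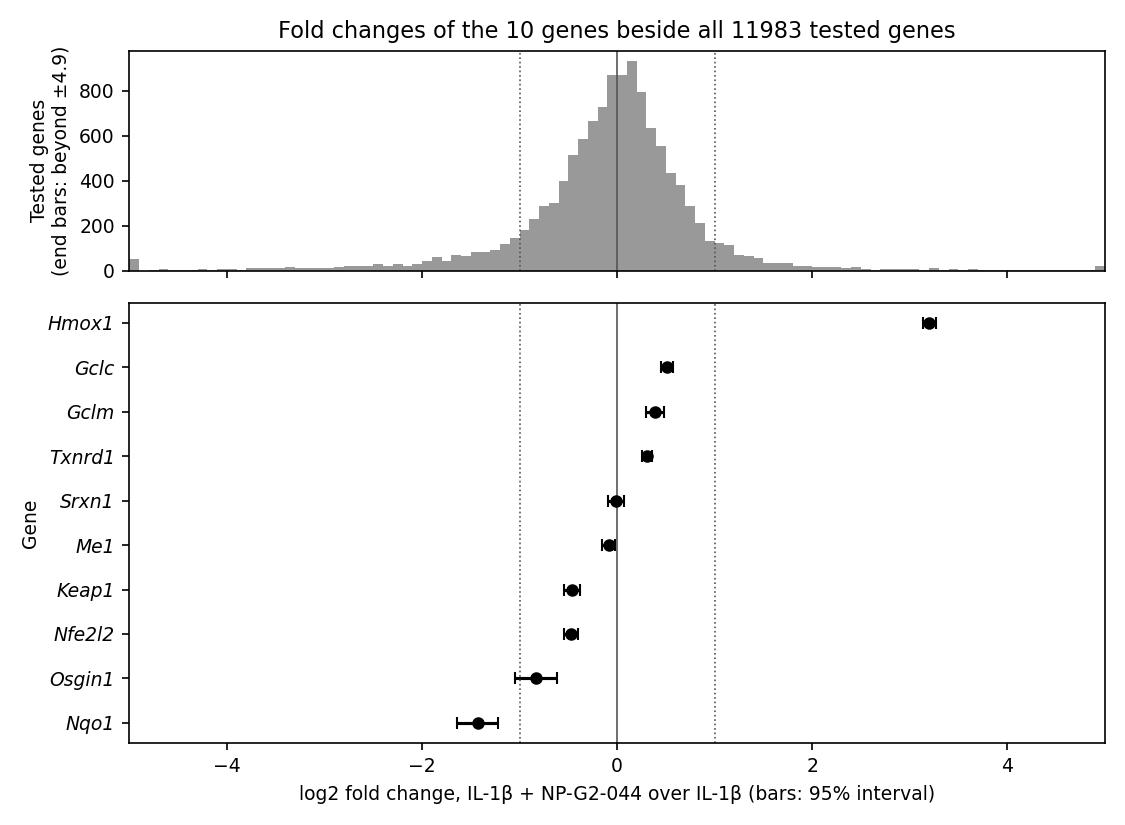
Log2 fold changes of the 10 genes with 95% intervals from edgeR (lower panel) under a histogram of the log2 fold changes of all 11983 tested genes (upper panel, number of genes per bar, values beyond the axis gathered in the end bars), with dotted lines at the fold cutoff. Hmox1 at 3.20 lies in the right tail and Nqo1 at −1.43 past the left cutoff, while the other 8 lie between the dotted lines.

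The order of the levels changed with these shifts. With IL-1β it ran from Txnrd1 at 181.4 TPM through Hmox1, Nfe2l2, Me1 and Gclc to Srxn1, Gclm, Keap1, Nqo1 and Osgin1 at 8.90 TPM. Srxn1 at 41.2, Gclm at 40.7 and Keap1 at 40.5 TPM overlapped as neighbours, and the other neighbours did not. With IL-1β plus NP-G2-044 it ran from Hmox1 at 764 TPM through Txnrd1, Gclc, Me1, Nfe2l2, Gclm, Srxn1 and Keap1 to Nqo1 at 5.96 and Osgin1 at 4.86 TPM. Only Nqo1 and Osgin1 overlapped there.

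The wider NRF2 and glutathione network was read from 8 lists with 125 gene names, of which 123 were listed and 106 tested. The lists were written with earlier results of these data known, so their shares are a description and not a test. By edgeR's adjusted p, 37 of the 106 were higher and 57 lower with the inhibitor, where 40.2% of all tested genes were higher and 39.8% lower. Past both cutoffs 12 were higher and 19 lower, 29.2% of those tested where 16.6% of all tested genes passed. The median log2 fold change was −0.23, with 0.64 for the median of its size, against 0.00 and 0.39 over all tested genes. The counts of each list below stand against these same shares of all tested genes: 40.2% higher and 39.8% lower by adjusted p, and 6.48% higher and 10.1% lower past both cutoffs.

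Among partners and regulators of NRF2, 8 of 18 tested genes rose and 6 fell, together a share near the 80% of all tested genes that passed, with 5 higher and 1 lower past both cutoffs and a median log2 fold change of −0.04. Sesn2, which encodes the stress-induced sestrin 2, rose from 6.70 ± 0.717 to 53.8 ± 0.76 TPM (SD, n = 3 each), or 3.04 on the log2 scale. Sqstm1, which encodes the autophagy receptor p62 that binds KEAP1, was at 530.5, 557.5 and 532.2 TPM with IL-1β and at 2108, 2141 and 2052 TPM with the inhibitor. The log2 fold change was 1.99 (SE 0.0275 and adjusted p = 3.31e-50 in edgeR's test), so that p62 transcripts rose while those of Keap1 fell. Exons of Sqstm1 share 580 bases with Mrnip, which lies antisense.

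The small MAF genes, whose products pair with NRF2 and also with BACH1 and NRF1, all rose. Maff went from 2.88 ± 0.236 to 9.98 ± 1.01 TPM, Mafk from 17.6 ± 0.766 to 53.3 ± 0.585 TPM and Mafg from 80.6 ± 1.18 to 140.8 ± 3.88 TPM (SD, n = 3 each). Their log2 fold changes were 1.90, 1.62 and 0.74, the last below the fold cutoff, and each adjusted p was at most 1.07e-19 in edgeR's test. Exons of Mafk share 169 bases with Tmem184a and those of Mafg 124 bases with Sirt7. Nfe2l1, which encodes NRF1, a relative of NRF2 known for proteasome genes, rose from 147.6 ± 7.98 to 374.3 ± 6.37 TPM (SD, n = 3 each), or 1.30 on the log2 scale. Bach1 was at 11.9, 11.3 and 11.7 TPM and at 11.7, 10.9 and 10.5 TPM, with a log2 fold change of −0.05 (95% interval −0.15 to 0.05, adjusted p = 0.39 in edgeR's test). The gene that fell past both cutoffs was Amer1, a Wnt pathway scaffold, from 10.8 ± 0.477 to 5.26 ± 0.365 TPM (SD, n = 3 each), just past the fold cutoff, and it is named because it was the exception. It lost the fold cutoff without replicate 2 of the IL-1β group (−0.98 on the log2 scale) and without replicate 2 of the inhibitor group (−0.95).

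In glutathione synthesis, import and recycling, 9 of 14 tested genes rose and 4 fell (40.2% and 39.8% of all tested genes), 4 and 1 of them past both cutoffs (6.48% and 10.1% of all), and the median change on the log2 scale was 0.20. The genes for both chains of the cystine importer rose, Slc7a11 from 7.79, 8.24 and 7.97 TPM to 36.0, 32.7 and 34.4 TPM and Slc3a2 from 164.3 ± 1.53 to 724.4 ± 2.26 TPM (SD, n = 3 each). Their log2 fold changes were 2.21 (adjusted p = 2.89e-45) and 2.16 (adjusted p = 4.20e-51 in edgeR's test). Cth, which makes cysteine from cystathionine, rose by 2.78 on the log2 scale. Gss, glutathione synthetase, rose from 35.7 ± 1.14 to 50.3 ± 2.47 TPM (SD, n = 3 each), or 0.53 on the log2 scale, beside 0.51 for Gclc and 0.39 for Gclm. Exons of Gss share 395 bases with Acss2, 322 with Gssos1 and 385 with Gssos2, which all lie on the opposite strand.

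The largest rise in that list was that of Chac1, whose enzyme degrades glutathione. Chac1 was at 11.9, 12.1 and 10.6 TPM with IL-1β and at 291.3, 289.9 and 290.5 TPM in the inhibitor group, its log2 fold change being 4.68 (adjusted p = 6.13e-56 in edgeR's test). Gsr, which reduces oxidized glutathione, was at 37.6 ± 0.297 and 31.2 ± 1.23 TPM (SD, n = 3 each), or −0.24 on the log2 scale (adjusted p = 3.04e-06 in edgeR's test). Glrx, glutaredoxin 1, fell from 33.2 ± 1.31 to 11.5 ± 0.774 TPM (SD, n = 3 each), or by 1.50 on the log2 scale. Chac2, the other gene of the list whose enzyme degrades glutathione, fell from 5.11 ± 0.417 to 3.55 ± 0.684 TPM (SD, n = 3 each), or by 0.50 on the log2 scale (adjusted p = 0.00789 in edgeR's test). Slc7a11, Slc3a2, Cth, Chac1 and Sesn2 are all known as ATF4 targets as well.

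Of the glutathione peroxidases and transferases, 12 of 17 tested genes were lower and 4 higher (39.8% and 40.2% of all tested genes), 7 and 2 of them past both cutoffs (10.1% and 6.48% of all), and the median change on the log2 scale was −0.70. Of the transferases, which couple glutathione to electrophiles, Gstt3 fell from 93.4 ± 0.716 to 15.8 ± 0.612 TPM, Gstm1 from 98.3 ± 4.31 to 24.6 ± 0.274 TPM, and the microsomal Mgst2 from 162.8 ± 2.88 to 36.5 ± 6.47 TPM (SD, n = 3 each). Their log2 fold changes were −2.54, −1.97 and −2.12. Mgst3 at −2.69, Gstm2 at −2.12, Gstt2 at −1.51 and Gstk1 at −1.30 completed the 7 that fell past both cutoffs, the last on 38 reads against 16. Exons of Gstt3 share 524 bases, or 13.6% of its exonic bases, with Gm20441 on the same strand.

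The transferase genes that rose were Gsta1 and Gsto1, past both cutoffs, and Gsta4, just below the fold cutoff, from 55.4 ± 3.93 to 107.2 ± 2.10 TPM (SD, n = 3 each). Gsta1 was at 5.29, 5.21 and 8.26 TPM with IL-1β and at 77.2, 70.5 and 81.5 TPM with the inhibitor, a log2 fold change of 3.62 (adjusted p = 1.92e-32 in edgeR's test), and Gsto1 rose by 1.65. The alpha and mu class transferases have near-identical copies, so how reads were divided between Gsta1 and Gsta2, or among the Gstm genes, is uncertain. Of the 4 tested peroxidase genes, Gpx4, which protects membrane lipids, rose by 0.56 on the log2 scale, and 3 fell, Gpx1 with −0.54, Gpx7 with −0.70 and Gpx8 with −0.86.

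Of the thioredoxins, peroxiredoxins and sulfoxide reductases, 10 of 15 genes fell and 3 rose, where 39.8% and 40.2% of all tested genes did, with a median log2 fold change of −0.48. Past both cutoffs were Msrb2, a methionine sulfoxide reductase, at −1.43 and Txnip, the inhibitor of thioredoxin, at −1.01, the latter with exons overlapping an antisense RNA over 606 bases. Txnip lost the fold cutoff without replicate 2 of the IL-1β group (−0.98 on the log2 scale) and without replicate 1 of the inhibitor group (−0.96). Of the 12 NADPH supply genes 3 rose and 7 fell, with a median of −0.38, and H6pd, the hexose-6-phosphate dehydrogenase of the endoplasmic reticulum, at −1.20 was the gene past both cutoffs. These shares past both cutoffs, 13.3% and 8.33%, were below the 16.6% of all tested genes.

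Enzymes for quinones, carbonyls and xenobiotics gave 7 of 19 tested genes higher and 10 lower (40.2% and 39.8% of all tested genes), none higher and 6 lower past both cutoffs (6.48% and 10.1% of all), and the median change on the log2 scale was −0.69. Aldh3a1, an aldehyde dehydrogenase, was at 44.0, 37.2 and 39.8 TPM with IL-1β and at 0.27, 0.66 and 0.46 TPM with the inhibitor. On the log2 scale Ephx1, the microsomal epoxide hydrolase, was at −1.73, Ptgr1, a prostaglandin reductase, at −1.57, Ugdh, which makes UDP-glucuronate, at −1.10, and Aldh3b1 at −2.13, and all of these are past both cutoffs. Abcc3, an export pump for conjugates, had 64 reads (a mean of 0.43 TPM) in the IL-1β group and 0 in the other. With a floor of 3 reads over the group in place of the 0, and the 64 reads taken as counted, it was at least 22.45-fold lower. The floor covers the counting error of the 0 reads and not that of the 64. Other Abcc genes of the list with higher levels rose below the fold cutoff, Abcc4 from 10.2 ± 0.347 to 18.3 ± 0.0557 TPM and Abcc5 from 40.6 ± 1.84 to 56.3 ± 0.996 TPM (SD, n = 3 each).

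Haem breakdown and ferritin genes were higher in 3 and lower in 4 of 7 cases, with a median log2 fold change of −0.13. Ferritin light chain Ftl1 rose from 3899, 3843 and 3935 TPM to 8034, 8027 and 8315 TPM, a log2 fold change of 1.09 (adjusted p = 7.93e-39 in edgeR's test), and the heavy chain Fth1 rose by 0.64 on the log2 scale. Slc48a1, which exports haem from lysosomes, rose by 0.89. Blvra and Blvrb, the biliverdin reductases that act after haem oxygenase, were at −0.13 and −0.29. Exons of Ftl1 overlap an unnamed transcript on the opposite strand over 355 bases, and ferritin genes have many processed copies, so their read counts are uncertain to that extent.

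All 4 genes of superoxide dismutases and catalase fell by adjusted p, as 39.8% of all tested genes did, with a median log2 fold change of −0.68. Sod3, the extracellular dismutase, went from 28.6, 23.7 and 25.5 TPM to 1.91, 1.72 and 2.21 TPM, a log2 fold change of −3.70 (adjusted p = 6.99e-33 in edgeR's test) and the only change of the 4 past both cutoffs. Sod2, the mitochondrial dismutase, changed by −0.89, Sod1 by −0.46 and Cat by −0.44 on the log2 scale.

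**Figure D4:**
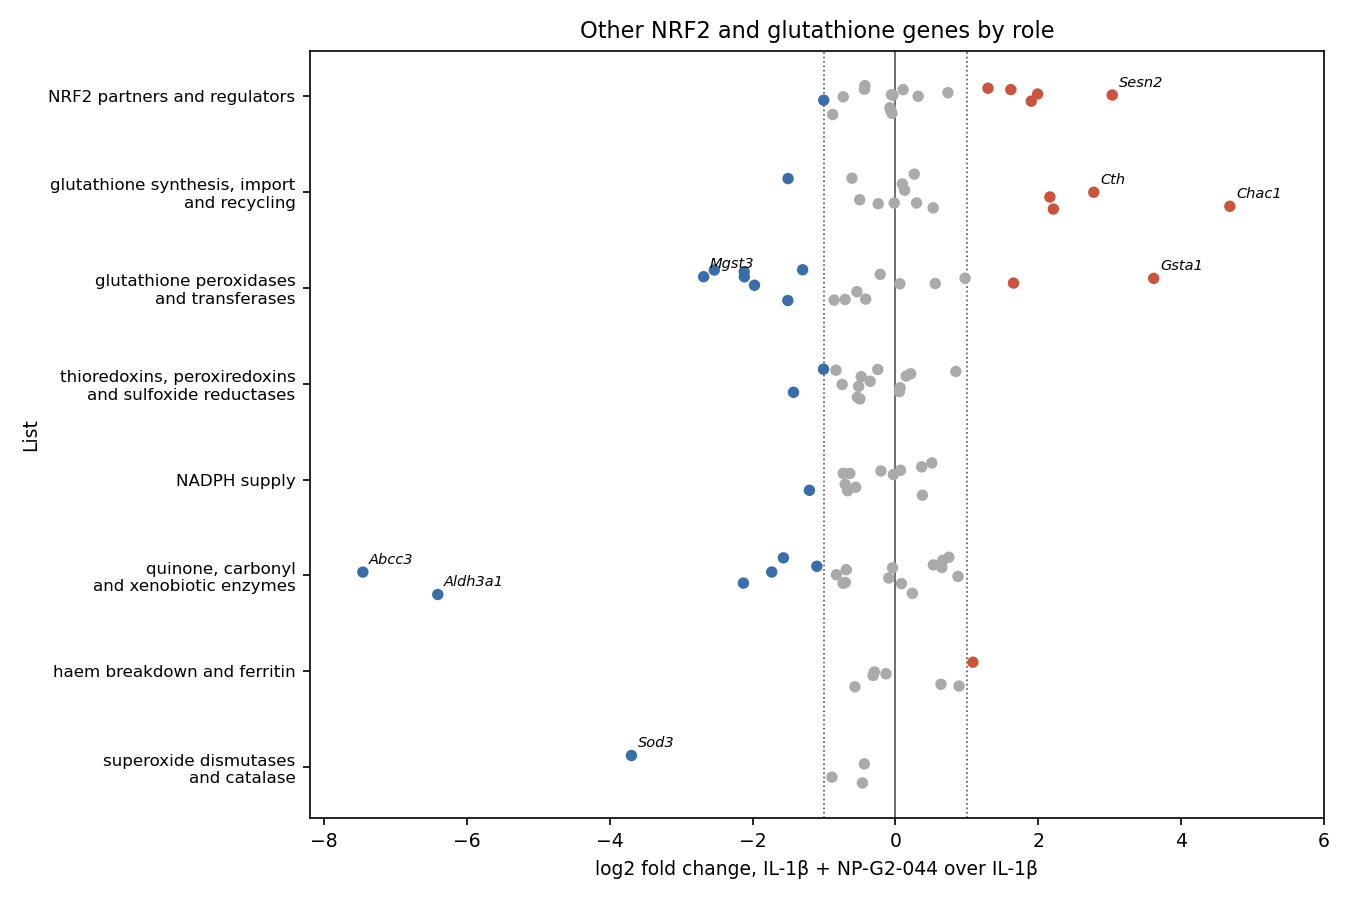
Log2 fold changes of the 106 tested genes of the other NRF2 and glutathione lists, 1 row per list with points spread vertically at random, coloured red for genes higher and blue for genes lower past both cutoffs and grey otherwise. Past the cutoffs lie 12 red and 19 blue points, where the coloured points of the transferase and xenobiotic rows are mostly blue and those of the regulator and glutathione synthesis rows mostly red, and the point of Abcc3 is a fitted value for a gene with 0 reads in 1 group.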

How the data were processed

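Total RNA of 6 libraries was prepared with the TruSeq kit and, per the methods, sequenced and quantified by BGI. The submitters' processing notes name cutadapt, HISAT2 2.0, StringTie and mm10. For the annotation, the counting tool and the use of strand: not given in the sources used here. The authors deposited expected counts per gene, not normalized, of which 10.17% to 11.06% per library were not whole, and TPM and FPKM made per library. The deposited TPM were used for levels and the deposited FPKM only as an alternative for ratios. The authors' group means were not used.

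Groups and replicates came from the labels. After rounding, genes below filterByExpr's default (at least 10 reads) were dropped. TMM factors and edgeR 4.0.16 (quasi-likelihood test, R 4.3.3, no covariates) gave the comparison of 3 libraries against 3, with Benjamini-Hochberg adjustment over 11983 genes. The standard error is the log2 fold change over the square root of F. The steps were tested on simulated data. Positions and exon overlaps are from GENCODE vM21 (GRCm38). Alternatives were other normalizations, DESeq2 1.42.0, limma 3.58.1 on counts or on log2(TPM + 1) and log2(TPM + 0.1), other filters, a replicate block, a test against a fold change of 2 and each library left out.

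The members and lists were chosen with earlier results of these data known. Named were every member, the listed genes past both cutoffs (up to 30 by size), 8 regulators and glutathione genes whatever their call, Fscn1 and the genes most like Nfe2l2. Further list genes and markers were named after their values were seen.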

Additional observations from a re-analysis of the deposited data

How the results depend on the processing

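Hmox1 stayed past both cutoffs in all 16 alternatives, with log2 fold changes of 3.16 to 3.21, and so did Nqo1 with −1.49 to −1.32. The number of the 10 genes past both cutoffs was 2 in every alternative. At an adjusted p below 0.05 their number was 8 to 9 with each library left out, and in edgeR's test against a fold change of 2 it was 2, since that test asks for a larger change. A stricter filter (3 libraries with 10 CPM or more) removed Osgin1. Srxn1 changed sign with a library left out, between −0.028 and 0.011 on the log2 scale, and was called in no alternative. The log2 ratio of Nfe2l2 to Keap1 differed by −0.0104 to 0.0118 between the groups with each library left out. Over all genes, 514 higher and 802 lower genes were called with limma on log2(TPM + 1), and 484 and 680 with the filter of 10 CPM, against 776 and 1211.

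The deviations of equally numbered libraries correlated by −0.09, −0.02 and 0.03, and those of unequally numbered libraries of different groups by −0.107 to 0.129. Such deviations include the counting error of reads, so these values cannot decide whether the libraries were paired. With the replicate block 775 genes were higher and 1209 lower, and the 10 genes gave 2 calls as before. Without a library, 785 to 822 genes were higher and 1216 to 1276 lower. Low reads limit what can be said of Gstk1, Gstm2 and Abcc3. Aldh3a1 had 21 reads and Aldh3b1 36 reads over the inhibitor group, so the size of their falls is uncertain too.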
